A study of Mus musculus with 24 samples.

Results

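The 6 transcripts described here are those of the adult haemoglobin chains, of the enzyme that starts haem synthesis in red cell precursors and of the main anion exchanger of the red cell membrane. They were taken by gene name (Hbb-bs, Hbb-bt, Hba-a1, Hba-a2, Alas2 and Slc4a1) from a count table of 43346 genes, and all 6 were among the 17773 genes with enough counts to test. The tissue was the gastrocnemius, a calf muscle, of C57BL6 mice that were 7 weeks old when they were injected under the skin with LLC1, a line grown from a Lewis lung carcinoma of the mouse, or with the PBS vehicle, and that were studied 3 weeks later. Poly(A) RNA of 24 libraries was sequenced in 4 groups of 6, namely female vehicle, female LLC1, male vehicle and male LLC1, and no group carried a gene alteration according to the labels. The labels number the libraries (1-4, 2-4 and so on) but do not say whether each is a separate mouse, so the tests rest on the spread among these libraries, which may be technical. Each group was sequenced on 1 flow cell lane of its own, and lane and group cannot be told apart.

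Haemoglobin carries oxygen as a tetramer of alpha and beta chains, each around a haem group. Erythroblasts make its messengers in very large amounts, and the reticulocyte, the young red cell that has already lost its nucleus, still holds them while it completes the protein in the blood. Mature red cells have shed most of their RNA, and muscle fibres use a different oxygen-binding protein, myoglobin, so adult globin messengers in a muscle extract are usually read as a trace of the blood held in it. In bulk tissue, a change in the number of red cells or reticulocytes and a change in the RNA each of them holds cannot be told apart.

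Total counts ran from 26179971 to 47356612 per library. The 10 muscle fibre markers on a list of structural genes such as Acta1 and Ckm were all tested and together made 123000 to 204700 CPM (counts per 1e6 counts, with library sizes scaled by the TMM method) in each library. One library stood apart for the red cell transcripts: female LLC1 2-4 had 1.86% of its counts on the 4 globin genes, against 0.128% to 0.3305% in the other female LLC1 libraries. The members' fold changes in females are therefore given with and without it, as are those of other genes that it moves most.

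The globin genes come as near copies, and the sequences show how far reads can tell them apart. Hbb-bs (ENSMUSG00000052305) lies at chr7:103826534-103828096 and Hbb-bt (ENSMUSG00000073940) at chr7:103812524-103813996, both on the minus strand of mm10, and they are the beta chain genes of the strain's haplotype. Hba-a1 (ENSMUSG00000069919) lies at chr11:32283511-32284465 and Hba-a2 (ENSMUSG00000069917) at chr11:32296489-32297298, both on the plus strand. The coding sequences of the beta pair were identical at 443 of 444 bases, and those of the alpha pair at 428 of 429, in the transcripts of GENCODE release M21. Counting from 1 at the first base of the start codon, the single difference was C417T between Hbb-bs and Hbb-bt and C381T between Hba-a1 and Hba-a2. The stretches around these bases are shown, with the differing base in capitals and the flanking coding sequence in lower case, because they are the only coding positions at which a read can be assigned to 1 copy.
Hbb-bs: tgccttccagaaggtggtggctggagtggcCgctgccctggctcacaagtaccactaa
Hbb-bt: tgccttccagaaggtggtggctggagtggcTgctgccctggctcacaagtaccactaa
Hba-a1: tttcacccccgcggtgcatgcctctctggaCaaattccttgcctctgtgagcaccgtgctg
Hba-a2: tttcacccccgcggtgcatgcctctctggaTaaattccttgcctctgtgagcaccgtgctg
Outside the coding sequence the pairs differ more. Of the 50-base windows of the Hbb-bs transcript, 53.2% occurred unchanged in Hbb-bt, and of those of Hbb-bt, 58.3% occurred in Hbb-bs. For the alpha pair these shares were 72.3% of Hba-a1 windows and 89.3% of Hba-a2 windows. How the authors' counting treated a read that fits both copies is not given in the sources used here, so the division between copies is uncertain and each pair was also tested as a sum.

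The promoters of the members that moved together are shown next, as the 250 bases before the RefSeq start (GRCm38.p6), written 5′ to 3′ on the gene's strand. Capitals mark 4 motifs searched on both strands: GATAA, the core that GATA factors such as the erythroid regulator GATA1 recognise; CACCC, the core of KLF factors such as the erythroid KLF1; CCAAT; and the TATA-like ATATAA. A match is a description of the letters only.
Hbb-bs: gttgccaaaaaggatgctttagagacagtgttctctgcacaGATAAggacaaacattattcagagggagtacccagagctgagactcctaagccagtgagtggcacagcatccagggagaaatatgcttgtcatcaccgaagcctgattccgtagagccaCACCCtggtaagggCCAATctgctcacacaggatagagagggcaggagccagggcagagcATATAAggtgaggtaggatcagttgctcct
Hbb-bt: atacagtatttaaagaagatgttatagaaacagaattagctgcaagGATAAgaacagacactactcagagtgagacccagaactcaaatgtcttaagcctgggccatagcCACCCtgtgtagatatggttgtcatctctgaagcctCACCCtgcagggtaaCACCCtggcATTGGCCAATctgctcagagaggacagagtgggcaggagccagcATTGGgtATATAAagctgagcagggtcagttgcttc
Hba-a2: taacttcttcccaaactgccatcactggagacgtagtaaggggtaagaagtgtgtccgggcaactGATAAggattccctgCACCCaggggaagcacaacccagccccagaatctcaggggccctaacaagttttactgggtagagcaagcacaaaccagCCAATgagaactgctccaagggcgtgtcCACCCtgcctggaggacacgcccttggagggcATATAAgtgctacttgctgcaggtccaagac
Alas2: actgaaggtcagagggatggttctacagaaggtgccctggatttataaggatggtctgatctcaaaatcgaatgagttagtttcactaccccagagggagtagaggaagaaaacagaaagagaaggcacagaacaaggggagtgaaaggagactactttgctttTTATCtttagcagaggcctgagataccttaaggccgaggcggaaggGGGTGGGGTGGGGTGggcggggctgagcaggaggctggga
The windows lie at chr7:103827929-103828178 for Hbb-bs, chr7:103813924-103814173 for Hbb-bt, chr11:32296242-32296491 for Hba-a2 and chrX:150547167-150547416 for Alas2. RefSeq promoters were found for 5 of the 6 members. The Hba-a1 window matched that of Hba-a2 at 97.6% of aligned bases, while the beta windows matched each other at 69.1%. Every one of the 5 windows held 1 GATAA, and each held at least 1 CACCC, with 3 in Hbb-bt and 3 in Alas2, the latter on the minus strand. In Hbb-bt a CCAAT on each strand lies side by side, as ATTGGCCAAT, and a further one lies on the minus strand. All 4 globin windows held a CCAAT and an ATATAA, the latter ending 23 to 26 bases before the start, and Alas2 held neither. Among 32536 RefSeq windows of the same length, 22.5% held a GATAA, 52.1% a CACCC, 33.8% a CCAAT and 9.09% an ATATAA.

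The question of the main comparison was how the muscle transcriptome of tumour-bearing mice differed from that of vehicle mice, in each sex. All 6 red cell transcripts were higher in the muscle of LLC1 mice, in females and in males, by edgeR's quasi-likelihood test with Benjamini-Hochberg adjustment over all genes. In females the fold changes were 7.11 to 8.02 for the globins, 9.51 for Alas2 and 39.9 for Slc4a1. In males they were 3.17 to 3.50 for the globins, 4.13 for Alas2 and 25.8 for Slc4a1. Without female LLC1 2-4 the female values fell to 2.94 to 3.52 for the globins, 4.58 for Alas2 and 14.2 for Slc4a1, and all 6 still passed the test. Over all genes tested, 4.97% were called higher and 4.95% lower in females, and 19.5% higher and 16.8% lower in males, and the median log2 fold change of all genes was -0.006 and 0.006.

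The 4 globins together made up a small share of each library. In female vehicle muscle the share was 0.0693% ± 0.0202 (SD, n = 6), from 0.0469% to 0.103%. In female LLC1 muscle it was 0.508% ± 0.668 (SD, n = 6), and 0.237% ± 0.0850 (SD, n = 5) without library 2-4. In male vehicle muscle it was 0.0623% ± 0.0228 (SD, n = 6), and in male LLC1 muscle 0.218% ± 0.113 (SD, n = 6), from 0.112% to 0.409%. Within each sex the lowest LLC1 share lay above the highest vehicle share.

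**Figure D1:**
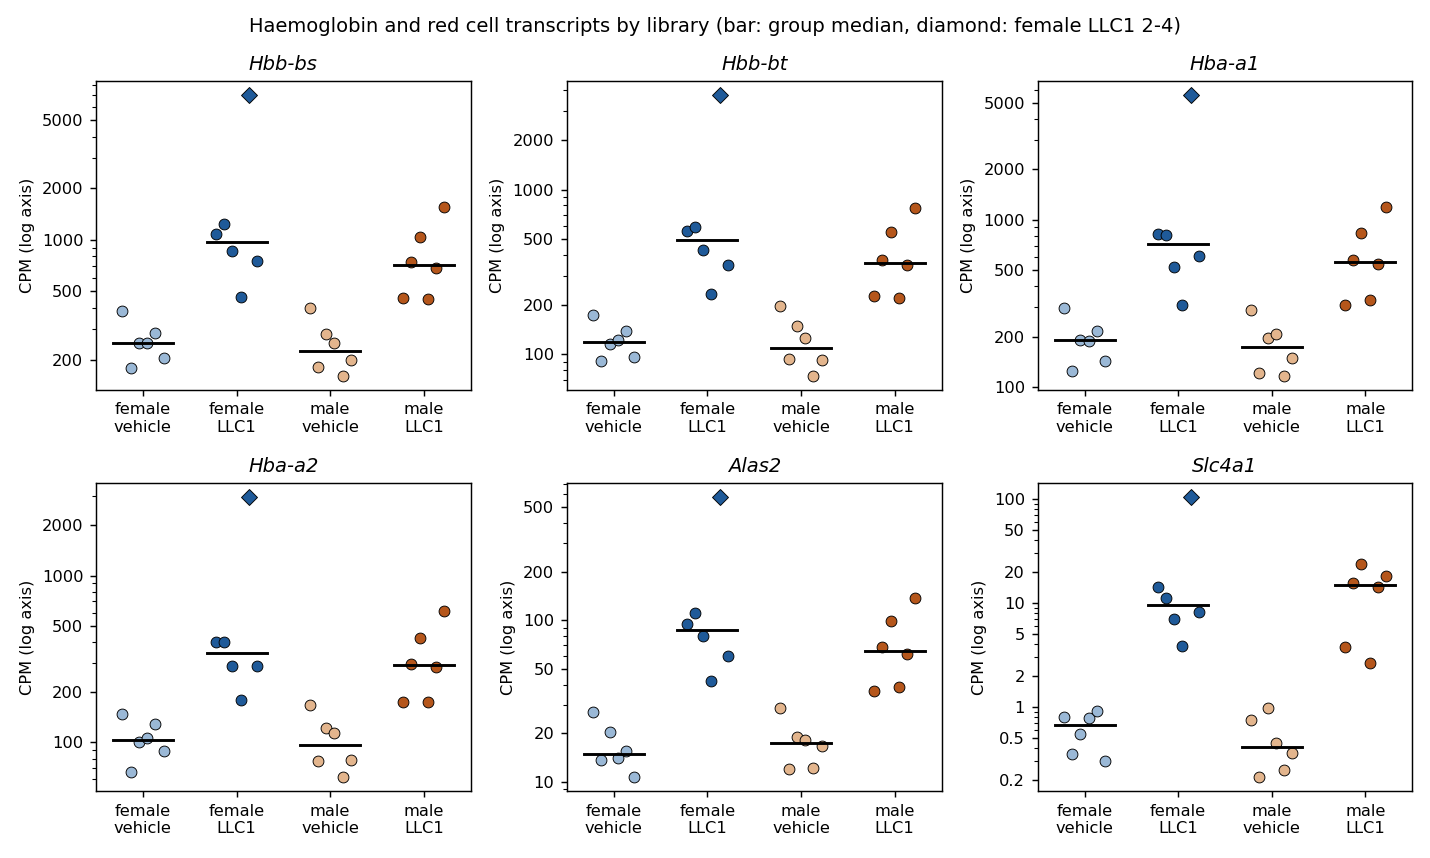
CPM of each of the 6 transcripts in the 24 libraries, on a log axis, by group; points are libraries, bars are group medians and the diamond is female LLC1 2-4. For every transcript the 6 LLC1 points of a sex lie above the 6 vehicle points, and the diamond lies far above all others, at 6998 CPM for Hbb-bs and 104.8 CPM for Slc4a1.

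Hbb-bs, the beta chain gene with more counts assigned to it, was at 177.9 CPM in the lowest female vehicle library, 248.9 at the median and 382.6 in the highest. In female LLC1 muscle the lowest, median and highest values were 463.5, 970.3 and 6998 CPM. All 6 LLC1 libraries were above all 6 vehicle libraries, by a factor of 1.21 between the closest, and 2-4 stood apart from the next highest, 1-5 at 1231 CPM. In males Hbb-bs ran from 161.0 through 224.9 to 400.0 CPM with vehicle and from 451.3 through 710.1 to 1555 CPM with LLC1. There too the groups did not overlap, and the closest libraries differed 1.13-fold. The log2 fold change was 2.88 ± 0.53 (SE; adjusted p = 0.00153) in females and 1.74 ± 0.51 (adjusted p = 0.0115) in males. Without female LLC1 2-4 it was 1.77 ± 0.31 in females, with an adjusted p of 0.00107.

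Hbb-bt, the other adult beta chain gene, followed the same pattern with fewer assigned counts. Its female vehicle libraries ranged from 90.72 through a median of 118.8 to 173.0 CPM, and its female LLC1 libraries from 232.7 through 492.3 to 3744 CPM. Male vehicle muscle held 74.17, 109.6 and 196.9 CPM at the lowest, median and highest, and male LLC1 muscle 219.4, 360.6 and 777.9 CPM. In both sexes all LLC1 libraries were above all vehicle libraries. Its log2 fold change was 3.00 ± 0.55 in females (adjusted p = 0.00146), 1.81 ± 0.32 without 2-4, and 1.77 ± 0.53 in males (adjusted p = 0.0126). With the reads of Hbb-bs and Hbb-bt summed, which removes the uncertainty between copies, the log2 fold change was 2.94 ± 0.54 in females (adjusted p = 0.00142), 1.78 ± 0.31 without 2-4, and 1.75 ± 0.52 in males (adjusted p = 0.012).

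Among the alpha chain genes, Hba-a1 ranged from 125.0 through 190.7 to 296.7 CPM in female vehicle muscle and from 310.3 through 713.0 to 5566 CPM in female LLC1 muscle. In males it ranged from 117.0 through 173.4 to 288.5 CPM with vehicle and from 311.2 through 560.3 to 1191 CPM with LLC1. The groups did not overlap, but the margin was narrow: the lowest LLC1 library was 1.05 times the highest vehicle library in females and 1.08 times in males. Its log2 fold change was 2.89 ± 0.57 in females (adjusted p = 0.00259), 1.67 ± 0.33 without 2-4, and 1.81 ± 0.55 in males (adjusted p = 0.0134). Hba-a2 had a median of 102.9 CPM in female vehicle and 345.1 CPM in female LLC1 muscle, with extremes of 66.13 and 148.2 CPM and of 180.6 and 2971 CPM. In males its vehicle libraries ran from 61.67 through 95.95 to 167.5 CPM and its LLC1 libraries from 173.7 through 289.4 to 612.9 CPM. Here, too, no LLC1 library reached down to the vehicle range, with a ratio of 1.04 between the closest male libraries. The log2 fold change of Hba-a2 was 2.83 ± 0.57 in females (adjusted p = 0.00295), 1.56 ± 0.31 without 2-4, and 1.66 ± 0.54 in males (adjusted p = 0.0209). The male call for Hba-a2 rested on library 2-5, without which the log2 fold change was 1.39 and the adjusted p 0.0542. The summed alpha pair changed by 2.89 ± 0.57 in females (adjusted p = 0.0025), by 1.63 ± 0.32 without 2-4, and by 1.75 ± 0.54 in males (adjusted p = 0.0159) on the log2 scale.

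Alas2 is the erythroid 5-aminolevulinate synthase, the first and rate-limiting enzyme of haem synthesis in red cell precursors. It lies at chrX:150547375-150570638 on the plus strand (ENSMUSG00000025270) and shares 311 exon bases with its neighbour Apex2, a DNA repair nuclease, so part of either count may belong to the other. Female vehicle libraries held 10.67, 14.80 and 27.23 CPM at the lowest, median and highest, and female LLC1 libraries 42.28, 87.24 and 579.7 CPM. Male vehicle libraries held 12.06, 17.35 and 28.77 CPM, and male LLC1 libraries 36.51, 64.93 and 136.2 CPM. The LLC1 and vehicle values did not overlap in either sex. The log2 fold change was 3.25 ± 0.54 in females (adjusted p = 6e-04), 2.20 ± 0.34 without 2-4, and 2.04 ± 0.52 in males (adjusted p = 0.0046).

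Slc4a1 encodes band 3, the chloride-bicarbonate exchanger that also anchors the red cell skeleton to the membrane, and lies at chr11:102348824-102366203 on the minus strand (ENSMUSG00000006574). It was the least abundant member and the one that differed most. Its vehicle values rest on 11 to 40 counts per female library and on 6 to 33 per male library. Female vehicle muscle held 0.3025, 0.667 and 0.913 CPM at the lowest, median and highest, and female LLC1 muscle 3.85, 9.65 and 104.8 CPM. In male vehicle muscle the values were 0.210, 0.408 and 0.971 CPM, and in male LLC1 muscle 2.62, 14.95 and 23.5 CPM. The closest libraries were 4.21-fold apart in females and 2.70-fold apart in males, a wider gap than for any other member. The 2 lowest male LLC1 libraries, 2-2 at 2.62 CPM and 1-4 at 3.75 CPM, lay well below the other male LLC1 libraries, which began at 14.4 CPM. The log2 fold change was 5.32 ± 0.82 in females (adjusted p = 2.81e-04), 3.83 ± 0.52 without 2-4, and 4.69 ± 0.85 in males (adjusted p = 3.71e-04). Ranked by log2 fold change among the 17773 genes, Slc4a1 was number 11 in females and number 25 in males, and the other members lay between 41 and 56 in females and between 148 and 225 in males. Without 2-4 the female positions were 24 for Slc4a1 and 81 to 155 for the others, among 17907 genes.

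Complete separation of the 6 LLC1 from the 6 vehicle libraries, as seen for all 6 members in both sexes, was found for 4.05% of all genes tested in females and 4.96% in males. Averaged over the sexes, all 6 members were called higher, with log2 fold changes from 2.25 for Hba-a2 to 5.00 for Slc4a1 (1.61 and 4.26 without 2-4), where 21.2% of all genes were called higher.

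**Figure D2:**
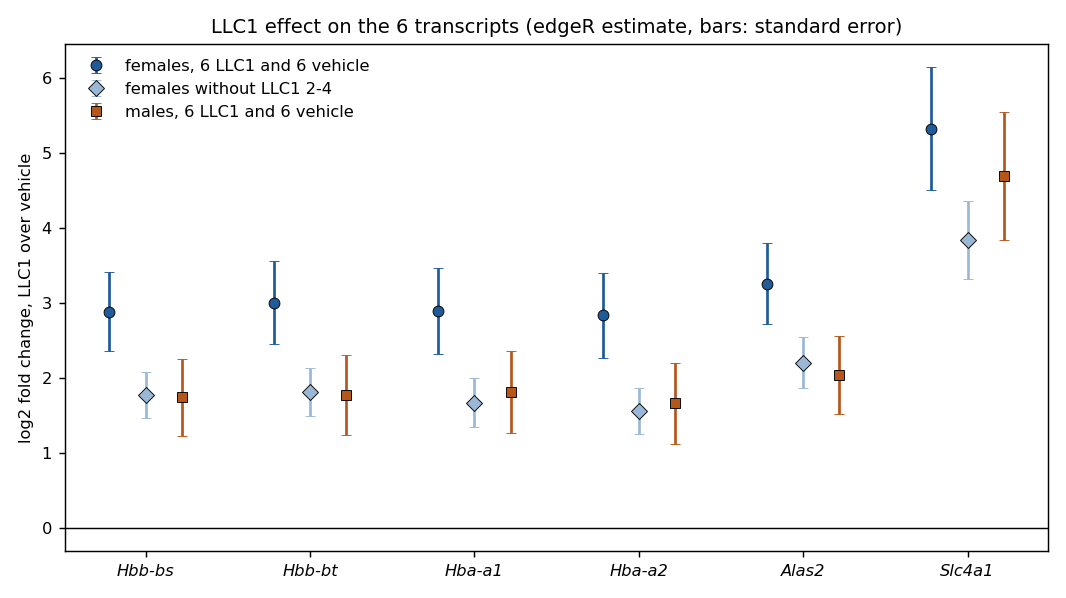
Estimated log2 fold change of LLC1 over vehicle for each transcript, with bars of 1 standard error, in females (circles), in females without library 2-4 (diamonds) and in males (squares). Without 2-4 the female estimates for the globins and Alas2, 1.56 to 2.20, sit beside the male ones, 1.66 to 2.04.

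Per kilobase of exon, which takes gene length into account, the order of the members was the same in each group's median. Among the globins this order also depends on how reads that fit both copies were counted, which the sources used here do not give. In female vehicle muscle the medians were 288.4 CPM per kb for Hbb-bs, 234.9 for Hba-a1, 168.9 for Hbb-bt, 154.2 for Hba-a2, 6.16 for Alas2 and 0.136 for Slc4a1. In male LLC1 muscle they were 822.8, 690.0, 513.0, 433.8, 27.0 and 3.06 CPM per kb in the same order. The spread between libraries was wide: the SD of Hbb-bs in female vehicle muscle, 83.25 CPM per kb, exceeded its distance from Hba-a1. The same held for Hbb-bt and Hba-a2. Within every library, however, Hbb-bs lay above Hba-a1 and Hbb-bt above Hba-a2. The closest values were 195.8 CPM per kb for Hbb-bt and 192.1 for Hba-a2, in female vehicle 2-2. Alas2 and Slc4a1 were each far below the member above them in every group.

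Tumour-bearing females and males were next compared directly. The difference between the male and the female LLC1 effect was -1.09 to -1.23 on the log2 scale for the globins, -1.21 for Alas2 and -0.63 for Slc4a1, and none passed the test (adjusted p from 0.490 to 0.851). The 95% interval for Hbb-bs ran from -2.61 to 0.33 and that for Slc4a1 from -3.17 to 1.91, so differences of several-fold in either direction were within the precision for Slc4a1. Over all genes 0.0% were called for this interaction by edgeR, with 2191 genes at an unadjusted p under 0.05, and DESeq2 called 29 in 1 direction and 28 in the other. Without female LLC1 2-4 the interaction was -0.03 for Hbb-bs, -0.04 for Hbb-bt, 0.14 for Hba-a1, 0.11 for Hba-a2, -0.15 for Alas2 and 0.86 for Slc4a1, with adjusted p values of 0.621 and above.

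Between vehicle mice of the 2 sexes the estimates ran from -0.30 for Slc4a1 to 0.07 for Alas2 (male minus female, log2), and no member was called, against 6.23% of all genes. The intervals were wide, from -1.11 to 0.97 for Hbb-bs and from -2.44 to 1.84 for Slc4a1. Among LLC1 mice the male minus female difference was -1.14 to -1.24 for the globins and Alas2 and -0.93 for Slc4a1. No member was called (adjusted p from 0.106 to 0.337), where 15.7% of all genes were, although 5 of the 6 had an unadjusted p under 0.05. These differences rested on library 2-4: without it they were -0.09 for Hbb-bs, -0.08 for Alas2 and 0.56 for Slc4a1.

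Whether the members rose in proportion was examined within each library, by the log2 ratio of 2 transcripts, which is free of the scaling between libraries. LLC1 and vehicle were compared by exact permutation tests (two-sided, 924 splits, 10 ratios tested, smallest possible p 0.00216). No change in the proportions of the globins passed the test. Per 1000 Hbb-bs counts, Hba-a1 had 746 ± 33.1 counts in female vehicle, 718 ± 85.5 in female LLC1, 733 ± 53.1 in male vehicle and 759 ± 46.2 in male LLC1 muscle (SD, n = 6 each). Hbb-bt had 479 ± 20.3, 499 ± 25.4, 493 ± 27.1 and 505 ± 16.2. The log2 difference between LLC1 and vehicle was -0.06 in females and 0.05 in males for Hba-a1 over Hbb-bs (exact permutation p = 0.429 and 0.351). For Hbb-bt over Hbb-bs it was 0.06 and 0.03 (exact permutation p = 0.167 and 0.37). The 2 alpha copies differed by -0.09 in females and by -0.12 in males, Hba-a2 over Hba-a1, with exact permutation p values of 0.21 and 0.0455, or 0.3 and 0.0909 after adjustment over the 10 ratios.

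Alas2 and Slc4a1 rose more than Hbb-bs. Alas2 had 65.6 ± 12.7 counts per 1000 Hbb-bs counts in female vehicle and 87.6 ± 4.74 in female LLC1 muscle (SD, n = 6 each), and 72.7 ± 6.16 and 88.3 ± 5.37 in males. The ratio was 1.35-fold higher in LLC1 females and 1.22-fold higher in LLC1 males (exact permutation p = 0.00433 in each sex, adjusted 0.0108), and 5 of 6 LLC1 libraries of each sex were above all vehicle libraries. The female vehicle libraries were spread, with 1-1, 1-3 and 1-4 at 71.2 to 82.5 and 2-1, 2-2 and 2-3 at 52.5 to 56.2. Slc4a1 had 2.35 ± 0.682 counts per 1000 Hbb-bs counts in female vehicle and 10.7 ± 2.81 in female LLC1 muscle. In males it had 1.94 ± 0.774 and 15.1 ± 7.37. This ratio was 4.49-fold higher in LLC1 females and 7.00-fold higher in LLC1 males (exact permutation p = 0.00216 in each, adjusted 0.0108), and all 6 LLC1 libraries of each sex exceeded all 6 vehicle libraries. Library 2-4, with 14.98 Slc4a1 and 82.84 Alas2 counts per 1000 Hbb-bs counts, was the highest of the female LLC1 libraries for the first ratio and the second lowest for the other. The male LLC1 libraries fell apart in the Slc4a1 ratio, with 1-5, 2-1 and 2-4 at 21.01 to 22.6 and 1-4, 2-2 and 2-5 at 5.80 to 11.8.

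**Figure D3:**
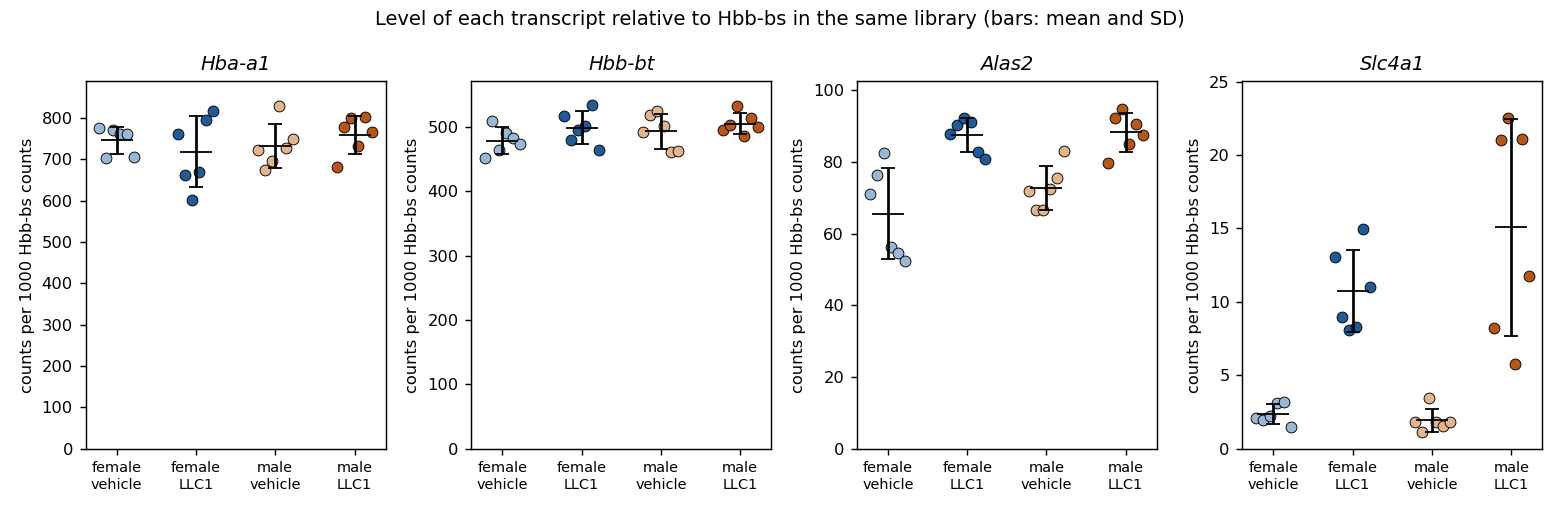
Counts of Hba-a1, Hbb-bt, Alas2 and Slc4a1 per 1000 Hbb-bs counts of the same library, by group; points are libraries, bars show the mean and SD, and each axis starts at 0. Hba-a1 and Hbb-bt lie level across the 4 groups, Alas2 is modestly higher with LLC1, and Slc4a1 rises from 2.35 to 10.7 in females and from 1.94 to 15.1 in males.

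Libraries of 1 group varied together in all 6 transcripts. After each group's mean was subtracted, the log2 CPM of the 4 globins correlated with each other at Pearson r of 0.988 to 0.997 over the 24 libraries, which share the fit's scaling, and at 0.972 to 0.993 without 2-4. Alas2 correlated with the globins at 0.962 to 0.980 and Slc4a1 at 0.912 to 0.925, which dropped to 0.847 to 0.873 for Slc4a1 without 2-4. The copies of a pair share sequence and may share reads. Among all other genes tested, those whose within-group variation was most like the mean of the 6 members included Fam46c (r = 0.970), Ube2l6 (0.961), Mkrn1 (0.938), Cdr2 (0.936), Apex2 (0.929), Apol11b (0.923), Isg20 (0.910), Epb4.2 (0.903) and Rsad2 (0.896), each over 24 libraries. Without 2-4 these correlations were 0.932, 0.911, 0.878, 0.844, 0.882, 0.831, 0.776, 0.782 and 0.746 in the same order. Apex2 shares exon bases with Alas2. Without subtraction of the group means, Fam46c (0.987) and Ube2l6 (0.977) again led, and Trim10 (0.963) and Gm10244 (0.955) joined the first 10. Fam46c, a poly(A) polymerase, had 3.80 CPM in female vehicle, 37.0 in female LLC1, 4.55 in male vehicle and 18.6 in male LLC1 muscle on average. The female LLC1 mean was carried by 2-4 at 136.4 CPM and was 17.1 CPM without it.

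Other genes of the red cell were examined from lists of names. The membrane and skeleton list had 15 tested genes other than Slc4a1, of which 7 were called higher and 0 lower in females, and 6 higher and 1 lower in males, against all-gene shares of 4.97% and 4.95% in females and of 19.5% and 16.8% in males. Without 2-4 the female counts were 6 and 0. Epb4.2, protein 4.2 of the band 3 complex, rose by 4.85 ± 0.75 on the log2 scale in females (adjusted p = 2.1e-04), by 3.69 without 2-4, and by 4.65 ± 0.91 in males (adjusted p = 6.12e-04), from 0.0588 and 0.0297 CPM in vehicle muscle. Sptb, a beta spectrin that muscle also makes, stood at 367 CPM in female vehicle muscle and rose by 0.46 ± 0.095 in females. The glucose transporter Slc2a1 rose by 0.63 ± 0.11 in males. Ank1, an ankyrin with muscle isoforms at 381 CPM in male vehicle muscle, fell by 0.85 in males (SE 0.21, adjusted p = 0.00306). The median over the 15 was 0.17 in females and 0.14 in males.

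Of 27 tested late erythroblast and reticulocyte genes beyond the 6 members, 12 were called higher and 1 lower in females, and 11 higher and 1 lower in males. Without 2-4 the female counts were 8 and 0. With every library, 4.97% of all genes were called higher and 4.95% lower in females, and 19.5% and 16.8% in males. Trim10, an erythroid ubiquitin ligase, went from 0.161 to 4.78 CPM in females (1.72 CPM without 2-4) and from 0.113 to 1.87 CPM in males, a log2 fold change of 4.85 ± 0.82 (adjusted p = 6.49e-04), or 3.38 without 2-4, and 4.00 ± 0.92 (adjusted p = 0.00212). Tspo2, an erythroid cholesterol-binding protein, rose by 4.43 ± 0.84 in females, 2.96 without 2-4, and by 4.31 ± 1.22 in males. Tfrc, the transferrin receptor through which erythroblasts take up iron and which muscle also makes, went the other way. It averaged 200 CPM in female vehicle and 82.4 CPM in female LLC1 muscle, and 211 and 66.0 CPM in males. Its log2 fold change was -1.28 ± 0.36 in females (adjusted p = 0.0251), -1.22 with an adjusted p of 0.053 without 2-4, and -1.68 ± 0.36 in males (adjusted p = 0.00137). The list's median log2 fold change was 0.46 in females and 0.33 in males.

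Of 14 tested genes of the pathway beyond Alas2, 0 were called higher and 1 lower in females, at an adjusted p under 0.05 in edgeR, and 1 higher and 5 lower in males, where 16.8% of all genes were called lower. The other all-gene shares were 4.97% higher and 4.95% lower in females and 19.5% higher in males. Alas1, the housekeeping form of the same enzyme, averaged 91.6 CPM in female vehicle and 68.7 CPM in female LLC1 muscle and fell by 0.41 on the log2 scale in females (SE 0.09, adjusted p = 0.00338) and by 0.40 in males (adjusted p = 0.00116). In males Alad, Uros, Cpox and the transporter Abcb10 fell by 0.22 to 0.31, and Slc25a38, which imports glycine into mitochondria, rose by 0.53 ± 0.11. Fech, which inserts the iron, had a log2 fold change of 0.17 ± 0.10 in females and was not called in either sex. The list's median was -0.06 in females and -0.05 in males.

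Erythroid transcription factors act while the cell still has its nucleus, and several are also made in other cells. Of 12 listed, 8 were tested, among them Ldb1 at 20.5 CPM and Cbfa2t3 at 16.2 CPM in female vehicle muscle, while Gata1 and Klf1 were too low to test: Gata1 had 11 counts over the 6 female vehicle libraries and 31 over the 6 female LLC1 libraries, and Klf1 had 22 and 27. A large part of the 31 Gata1 counts lay in 2-4, and the female LLC1 mean of Gata1 without it was 0.0768 CPM (SD 0.0636, n = 5). In females 2 of the 8 were called higher and 0 lower, and in males 3 higher and 1 lower. The all-gene shares were 4.97% and 4.95% in females and 19.5% and 16.8% in males. Nfe2, a subunit of the factor NF-E2 that is also made in megakaryocytes and granulocytes, rose by 2.08 ± 0.36 in females (adjusted p = 6e-04) and 2.82 ± 0.39 in males (adjusted p = 1.83e-05). Tal1 rose by 0.74 ± 0.16 and 0.43 ± 0.16. In males Ikzf1, a lymphoid and myeloid factor, rose by 0.90 ± 0.31, and Zfpm1, the cofactor FOG1, fell by 0.43 (SE 0.16), and neither was called without male LLC1 1-4 (0.54, adjusted p = 0.117, and -0.41, adjusted p = 0.068).

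**Figure D4:**
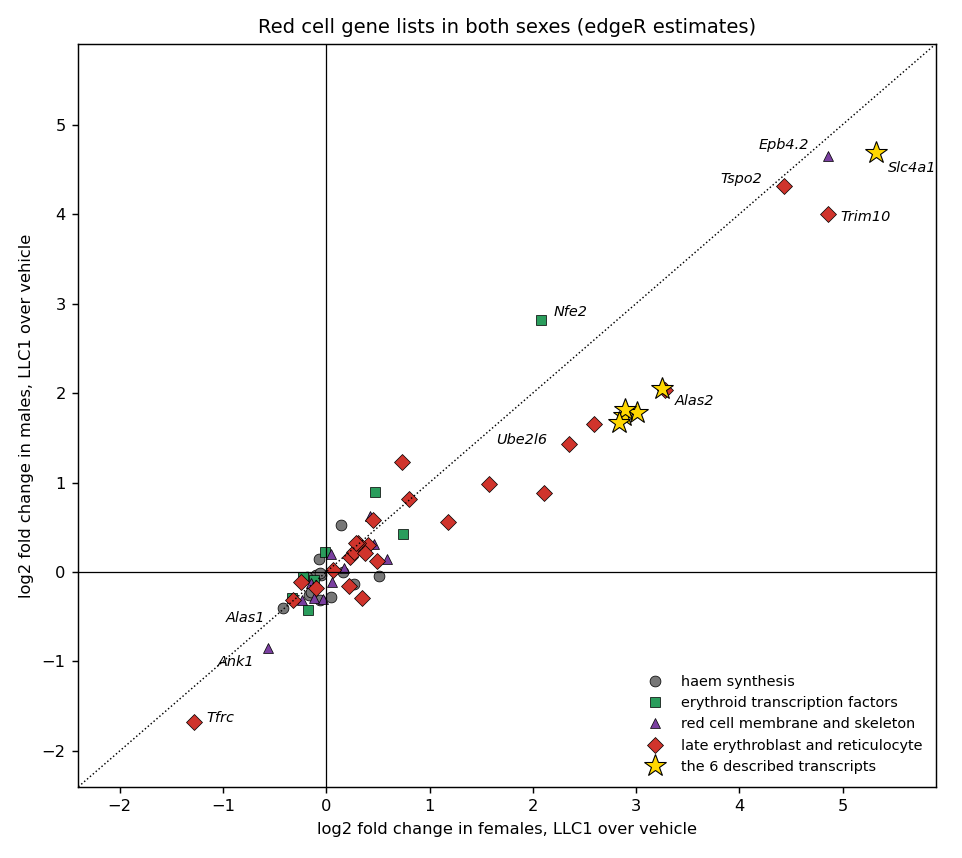
Log2 fold change of LLC1 over vehicle in females (horizontal) and males (vertical) for genes of 4 red cell lists, with the 6 described transcripts as stars; the dotted line marks equal change. Epb4.2, Trim10 and Tspo2 lie with Slc4a1 above 4.00 in both sexes with 2-4 included (2.96 to 3.83 in females without it), Tfrc lies lowest at -1.28 and -1.68, and haem synthesis genes lie around 0.

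Of 10 other globin genes matched by name, 3 were tested and 0 were called in either sex by edgeR. Without 2-4, Cygb, the cytoglobin of fibroblast-like cells, was called higher in females, with a log2 fold change of 0.48 and an adjusted p of 0.0177. Mb, the myoglobin of muscle fibres, averaged 1791 CPM in female vehicle and 1361 CPM in female LLC1 muscle, a log2 fold change of -0.40 ± 0.21 (adjusted p = 0.232), and -0.40 ± 0.21 in males (adjusted p = 0.132). The embryonic beta-like genes were nearly silent, with 0 counts of Hbb-bh0 and Hbb-bh2 in any group and 6 of Hbb-y in female LLC1 muscle. The theta-like gene Hbq1b had 9 counts over the female vehicle and 161 over the female LLC1 libraries, 124 of the latter in library 2-4.

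Markers of other blood and tissue cells were read in the same libraries. Of 13 tested neutrophil genes, 12 rose in females and 13 in males, and the summed level of the 15 listed genes went from 10.2 to 23.3 CPM in female vehicle to 76.0 to 213 CPM in female LLC1 libraries. In males it went from 10.6 to 19.9 CPM to 84.1 to 212 CPM. Elane and Mpo, made by immature granulocytes, were too low to test, and Ltf and Elane were at 0 counts in male vehicle muscle. Library 2-4, the highest of its group for every red cell member, was the lowest of its group for the neutrophil sum, at 76.0 CPM. Of 10 tested platelet genes, 3 rose in each sex, where 4.97% of all genes were called higher in females and 19.5% in males. Tubb1, a beta tubulin of platelets, rose by 2.25 ± 0.39 in females (adjusted p = 5.54e-04), 2.06 without 2-4, and by 1.94 ± 0.42 in males. Ppbp, a platelet chemokine, rose by 2.00 ± 0.46 and 1.51 ± 0.51, and Itga2b by 0.70 ± 0.21 and 0.90 ± 0.22, the female call for Itga2b being lost without 2-4 (0.57, adjusted p = 0.0917). The platelet list's median was 0.51 in females and 0.46 in males. The summed level of the 15 listed genes, to which Pf4 and Gp1ba contributed most in vehicle muscle, was 16.4 to 24.3 CPM in female vehicle and 17.3 to 32.5 CPM in female LLC1 muscle. In males the platelet sum was 16.4 to 23.5 CPM and 17.2 to 26.3 CPM, with Gp6 at 0 counts in vehicle muscle. Of 12 endothelial genes, 4 were higher and 0 lower in females, and 4 higher and 3 lower in males (all genes 19.5% and 16.8%), with summed levels of 400.1 to 505 CPM in female vehicle and 442 to 657 CPM in female LLC1 muscle. Haematopoietic stem and progenitor genes had 0 called of 7 in females by edgeR and 3 lower in males. The part of these cells, or of the amount of blood in the tissue, in the red cell result was not tested.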

How the data were processed

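The data are RNA-seq libraries of gastrocnemius muscle. The authors deposited 1 table of whole-number counts per gene, made with STAR and featureCounts on mm10 after CASAVA, per the submitters' processing notes, with no versions given. The exon length of each gene is another column of the authors' deposited table. The sources used here do not give the strand setting or how reads that fit several copies were handled.

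All genes were fitted with edgeR 4.0.16 in R 4.3.3 (filterByExpr, TMM, robust quasi-likelihood F-test, 4 group means over 24 libraries, 20 residual degrees of freedom), and p-values were Benjamini-Hochberg adjusted over the 17773 genes tested, with a call at an adjusted p under 0.05. The common biological coefficient of variation was 0.174 and TMM factors ran from 0.924 to 1.10. Standard errors are the log2 fold change over the root of F. CPM use TMM-scaled library sizes. Ratios within a library had a pseudocount of 0.5 and exact permutation tests, adjusted over 10. Likeness used log2 CPM with a prior count of 2. DESeq2 1.42.0 and limma 3.58.1 (voom), other scalings and filters, each sex alone, summed copies, replicate blocks and leaving out each library were alternatives. The fit and the permutation test were tested on simulated data. Total counts were 26179971 to 47356612, so that counting error is small beside the spread between libraries, except for genes with few counts.

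The members and the gene lists were chosen with earlier results of these data known. Named genes are the 6 members, the 10 genes most alike by each measure, and from each list all genes called if 5 or fewer, otherwise the 4 largest called changes in each sex; further genes named for a count or as background (Gata1, Klf1, Fech, Mb, Hbq1b, Elane and Mpo among them) were chosen after their values were seen. The few same-numbered vehicle and LLC1 libraries of a sex did not deviate together, so numbers were not treated as pairs in the main fit. Some genes that this rule names are not reported here, and counts over a list include them.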

Additional observations from a re-analysis of the deposited data

Results flagged for a closer look

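In 44 groups of 6 values examined for a sample far from the others, 7 had one (gap to the nearest value over the range above 0.625). A chance rate of about 1 in 20 would hold only for independent groups, and these share libraries and members that vary together. Of the 7, 6 were the same library, female LLC1 2-4, which stood above the other female LLC1 libraries at 6998 CPM for Hbb-bs, 3744 for Hbb-bt, 5566 for Hba-a1, 2971 for Hba-a2, 579.7 for Alas2 and 104.8 for Slc4a1. The same library had the lowest neutrophil (76.0 CPM) and macrophage (151 CPM) sums of its group and the highest haem synthesis sum (676.5 CPM). The part of these in its red cell values was not tested. The other was male LLC1 1-4, whose log2 ratio of Hba-a2 to Hba-a1 of -0.831 was the highest of its group, where the lowest was -0.97.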

How the results depend on the processing

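All 6 members were called higher in both sexes under RLE, upper-quartile and total-count scaling, library sizes without the haemoglobin genes, no filter and a filter of 1 CPM, DESeq2, limma-voom with and without sample weights, each sex fitted alone and a block for the first digit of the library number. With copies summed, all 4 features were called, also without female LLC1 2-4, an alternative added after the data were seen, like the lists without male LLC1 1-4. A replicate block on the full library number left 2 members called in females and 2 in males (Alas2 and Slc4a1), the globins having adjusted p values of 0.0814 to 0.136 and 0.0696 to 0.112, while the members' median log2 fold change under this block was 2.27 in females and 1.87 in males (2.95 and 1.79 without it). Correlations of deviations between same-numbered vehicle and LLC1 libraries of a sex were -0.167 to 0.063. That check covered few libraries and did not compare same-numbered libraries of the 2 sexes, which the block joins. Over all genes the block left 352 higher and 128 lower calls in females and 1939 and 1668 in males. Leaving out 1 library at a time kept 6 called, except 5 in males without male LLC1 2-5. The male ratio of Hba-a2 to Hba-a1 ranged from -0.15 to -0.09 with 1 library left out, with adjusted p of 0.039 without male LLC1 1-4 and 0.0476 without male vehicle 2-5. No value changed direction past the test. Under the alternatives, 1287 member fold changes, counted over all comparisons, kept their side of the threshold and 9 were no longer past it. Some estimates that did not pass changed sign, such as the interaction of Slc4a1, which ranged from -0.9 to 0.86. Over all genes, edgeR called 884 higher and 879 lower in females, against 1883 and 2163 by voom with sample weights, 1391 and 1152 with females fitted alone, and 747 and 568 with no filter. Leaving out 1 library at a time gave 607 to 1139 higher calls in females. Total-count scaling gave 4024 higher and 2187 lower in males, against 3462 and 2987, a share of higher calls of 64.8% against 53.7%. For the interaction, DESeq2 called 29 higher and 28 lower and the first-digit block 119 and 49, with no member among them.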

Other observations

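Of 21 tested genes that clear haemoglobin or handle iron, 0 were called higher by edgeR and 1 lower in females, and 2 higher and 7 lower in males. For this list and those below, all-gene shares were 4.97% higher and 4.95% lower in females, and 19.5% and 16.8% in males. Blvra, a biliverdin reductase, fell by 0.41 on the log2 scale in females (SE 0.08, adjusted p = 0.00259). In males Slc39a14, which imports zinc and iron, rose by 1.80 ± 0.36 (adjusted p = 7.75e-04), Ftl1, the ferritin light chain, by 0.50 ± 0.16, and Steap3, a ferrireductase, fell by 0.90 (SE 0.17). Hmox1, haem oxygenase, had log2 fold changes of 0.19 ± 0.28 and 0.45 ± 0.28 and was not called in either sex. Of 19 hypoxia-responsive genes, 5 were higher and 1 lower in females (3 and 1 without library 2-4), and 7 higher and 4 lower in males. Bnip3, which marks mitochondria for removal, rose by 0.71 ± 0.19 in females, 0.61 without 2-4 (adjusted p = 0.0543), and by 1.27 ± 0.20 in males, and Epo, the hormone that drives red cell production, had 64 counts in female vehicle and 70 in female LLC1 muscle. Of further cell lists, macrophage genes had 0 of 14 called in females by edgeR and 2 higher in males, B cell genes 0 of 5 and then 3 higher and 1 lower, T and NK cell genes 0 of 2 and 1 higher, epithelial genes 1 of 4 and 0, and muscle fibre genes 2 and 3 lower of 10. The male B and T cell calls for higher levels rested on male LLC1 1-4 (Cd79a 5.67 CPM, against at most 0.523 in the other male LLC1 libraries): without it none of these genes was called, with log2 fold changes of 0.58 to 0.69 for the B cell genes (adjusted p from 0.155 to 0.473) and 0.38 for Cd4 (adjusted p = 0.49), and limma-voom called none of them with all libraries.

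The embryonic alpha-like gene Hba-x and the beta-like pseudogene Hbb-bh3 had counts of an all-or-little kind, a division chosen after the values were seen. Hba-x had at most 12 counts in 5 libraries (female LLC1 1-4, 2-1 and 2-4, female vehicle 1-1 and male LLC1 2-1) and 35 to 655 counts in the other 19, where it held 9.35 to 20.1 counts per 1000 Hba-a1 counts. Library 2-4, with 225265 Hba-a1 counts, had 12 of Hba-x, while male LLC1 2-5, with 47785, had 655. Hbb-bh3 had at most 6 counts in 6 libraries and 30 to 351 in the other 18, at 4.96 to 9.27 per 1000 Hbb-bs counts. The libraries low for Hbb-bh3 were all LLC1, namely female 1-4, 2-1, 2-4 and 2-5 and male 2-4 and 2-5. No 50-base window of either transcript occurred in its adult counterpart (0 of 887 for Hba-x and 0 of 217 for Hbb-bh3). Of the low libraries, 3 were low for both genes.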
